A study of Arabidopsis thaliana with 12 samples.

Results

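The response of wild-type *Arabidopsis thaliana* seedlings (accession Col-0, labelled WT) to abscisic acid (ABA) is described here across all nuclear genes of a table of RNA-seq read counts. The members were every gene whose identifier does not mark it as plastid or mitochondrial, 33323 of 33602 genes in the table, and 6 of the 12 libraries of the series. All seedlings were 7 days old, whole, and grown on agar plates of half-strength Murashige and Skoog (MS) medium with sucrose. The 3 mock libraries came from seedlings placed in liquid half-strength MS for 3 h, and the 3 ABA libraries from seedlings placed for 3 h in the same medium with 50 µM ABA. These seedlings carried no transgene or mutation according to the labels. The labels number the replicates but do not say that they came from separate cultures, so the p-values measure the spread between these libraries, which may be technical. The RNA was from whole seedlings, and a lower level can come from fewer cells of a type as well as from less RNA per cell, which cannot be told apart here.

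ABA is the plant hormone of drought, salt and seed dormancy. It binds soluble receptors of the PYR/PYL family, which then hold and inhibit clade A protein phosphatases 2C (PP2Cs). Without ABA these phosphatases keep SnRK2 protein kinases inactive, and their inhibition frees the kinases to phosphorylate basic leucine zipper (bZIP) factors of group A, which bind ABA-responsive elements (ABREs) in promoters. The output is known to include stomatal closure, slower growth and protective proteins such as dehydrins. The comparison asks which of these parts, and which other pathways, changed in transcript level within 3 h of ABA.

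The ABA libraries held 13180349 to 29798437 counted reads and the mock libraries 6616931 to 14479752, so that low counts were less precise in mock samples. Plastid and mitochondrial genes took from 0.0693% to 3.75% of the reads. Across genes, log2 CPM (counts per 1000000 counted reads, with library sizes scaled by the TMM factors of edgeR) correlated at 0.993 between ABA replicates 1 and 2 and at 0.973 between mock replicates 1 and 2, whereas replicate 3 of each treatment correlated with its group at 0.921 to 0.949. These correlations are across genes, which are not independent replicates. Replicate 3 therefore stood apart in both groups, and counts are also given for replicates 1 and 2 alone. Of the tissue markers, 8 of 8 root genes and 6 of 6 genes of green shoot passed the filter on low counts, while 0 of 11 embryo and seed genes did. Of the flower markers 2 of 6 passed it, with a summed CPM of 1.60 to 15.0 in mock and 4.61 to 9.31 in ABA libraries. The summed CPM of the embryo and seed markers lay between 0.434 and 10.3 in mock libraries and between 0.140 and 0.362 after ABA, and the highest value was that of mock replicate 3.

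ABA changed the level of a large share of the transcriptome within 3 h. A gene passed the test, edgeR's quasi-likelihood test with Benjamini-Hochberg adjustment over all genes, at an adjusted p under 0.05 and was called ABA-responsive if it also changed at least 4-fold. Of 19947 nuclear genes with enough reads for the test, 3310 (16.6%) rose and 2910 (14.6%) fell, and 814 (4.08%) rose and 613 (3.07%) fell at least 4-fold. The median log2 fold change over all of them was -0.01. The shares of 16.6% and 14.6% are the background for the list counts below that use all replicates. The counts depended on single libraries: leaving out mock replicate 1 gave 1880 higher and 1585 lower genes, leaving out ABA replicate 1 gave 2026 and 1423, and leaving out ABA replicate 2 gave 2086 and 1457. With replicates 1 and 2 alone, 4792 of 19885 genes (24.1%) rose and 4549 (22.9%) fell, and at least 4-fold 829 rose and 737 fell, of which 677 and 492 were among those called with all replicates. Under upper-quartile scaling in place of TMM, the median of all genes moved to -0.15, and the share of higher genes among those that passed moved from 53.2% to 41.8%, or from 57.0% to 48.4% among those called at 4-fold. For 9985 genes (50.1%) the mock libraries and the ABA libraries did not overlap, which is the background for every such statement about single genes.

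Among genes with a mean of at least 10 CPM whose groups did not overlap, the 10 largest increases were on genes almost silent under mock conditions. *RAP2.6* (AT1G43160), which encodes an ethylene response factor, had 0.521, 1.33 and 0.974 CPM in mock replicates 1 to 3 and 91.0, 69.0 and 382 CPM in ABA replicates 1 to 3 (log2 fold change 7.63, SE 0.91, n = 3 and 3, adjusted p = 0.00230). The heat stress factor gene *HSFA6B* (AT3G22830) had 2.00, 1.33 and 0.139 CPM under mock conditions and 196, 213 and 185 CPM after ABA (log2 fold change 7.48, SE 0.71, n = 3 and 3, adjusted p = 0.00130). The beta-glucosidase gene *BGLU24* (AT5G28510) rose from 0.868, 1.03 and 0.626 CPM to 82.9, 109 and 218 CPM (log2 fold change 7.38, SE 0.51, n = 3 and 3, adjusted p = 0.000630). That the groups lay apart was a condition of the selection. ABA replicate 3 was the highest library for *RAP2.6* and *BGLU24* but not for *HSFA6B*. AT1G10585 and AT2G17850, which have no symbol in the reference, rose by 7.06 and 8.62 on the log2 scale (adjusted p = 0.00232 and 0.000720). AT5G10040 had 1 read in the 3 mock libraries together and 2694 after ABA, a ratio of 1265 after scaling (95% counting interval 227 to 49990). AT5G28520 had 2 reads under mock conditions and 3025 after ABA (ratio 710.3, interval 196 to 5868), and AT5G05220 had 3 and 1477 (ratio 231, interval 79.0 to 1122). AT2G38240 had 0, 1.03 and 0 CPM and 34.8, 8.92 and 102 CPM, with a log2 fold change of 7.68 that moved to 12.87 without mock replicate 2, the only mock library with reads on it. The last of the 10 was the PP2C gene *HAI3*, described with its family.

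By the same rule, the 10 deepest decreases included cell wall genes. *EXPA8* (AT2G40610), an expansin that loosens the wall, fell from 161, 109 and 70.2 CPM to 3.36, 2.75 and 0.181 CPM (log2 fold change -5.77, SE 0.91, n = 3 and 3, adjusted p = 0.00527), and the beta-expansin gene *EXPB1* (AT2G20750) fell from 16.3, 8.25 and 33.9 CPM to 0.280, 0.595 and 0.688 CPM (log2 fold change -5.24, SE 0.65, n = 3 and 3, adjusted p = 0.00251). AT2G01021, which lies beside ribosomal RNA genes on chromosome 2 in the RefSeq annotation and whose reads may stem from more than 1 copy, had 805, 1181 and 841 CPM under mock conditions and 11.9, 1.19 and 5.72 CPM after ABA (log2 fold change -7.21, SE 0.86, n = 3 and 3, adjusted p = 0.00232). Here too, groups without overlap were a condition of the rule. AT1G64500, AT2G15020, AT1G13650, AT2G30766 and AT2G16367 fell, with log2 fold changes of -6.18, -6.34, -6.21, -5.51 and -7.32 (adjusted p from 0.00232 to 0.0103), and all of them were highest in mock replicate 3. AT2G16367 had 18.3, 5.30 and 145 CPM in mock replicates 1 to 3, and its log2 fold change was -4.89 with replicates 1 and 2 alone. AT2G27420 and AT3G28270 were also highest in mock replicate 3. AT2G27420 had 3.30, 1.77 and 112 CPM under mock conditions and 4 reads in the ABA libraries, and its call was lost without ABA replicate 1, ABA replicate 2 or ABA replicate 3 (adjusted p from 0.0542 to 0.0714), and the log2 fold change was -5.35 without mock replicate 3. AT3G28270 had 15.5, 7.80 and 248 CPM and 0.701, 0.223 and 0.760 CPM (log2 fold change -7.22, adjusted p = 0.0152), and its call was lost without ABA replicate 1 or ABA replicate 2 (adjusted p from 0.0544 to 0.0551), and the log2 fold change was -4.28 without mock replicate 3.

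The promoters of the genes that rose at least 4-fold held the ABRE core more often than those of other genes. The window was the 250 bases upstream of the gene start in the RefSeq annotation of TAIR10.1, and each motif was searched on both strands: the ABRE core ACGTG, the G-box CACGTG, which contains it, the DRE core GCCGAC, the evening element AAAATATCT and the telo-box AAACCCTA. ACGTG was found in 43.4% of the 814 higher genes (95% Wilson interval 40.0 to 46.8), in 24.3% of the 613 lower genes (95% Wilson interval 21.1 to 27.9) and in 24.0% of the 19929 genes with a window among all those tested. CACGTG was in 17.1% of the higher genes (95% Wilson interval 14.7 to 19.8), 7.18% of the lower genes and 7.51% of all. At least 2 separate ACGTG stretches were in 16.0% of the higher genes, 4.24% of the lower genes and 5.62% of all. The DRE core, the element of the CBF and DREB2 factors, was searched only as GCCGAC, and its ACCGAC form was not counted. GCCGAC was rarer but also more frequent in the higher genes, with 5.65% of higher genes (95% Wilson interval 4.26 to 7.46), 2.12% of lower genes (95% Wilson interval 1.24 to 3.59) and 2.96% of all. The evening element was in 3.19%, 2.28% and 2.47%, and the telo-box in 1.84%, 3.43% and 3.60%, in the same order. No test was run on these shares, the intervals cover counting error only, and a match describes letters in a window, not a bound site.

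**Figure D1:**
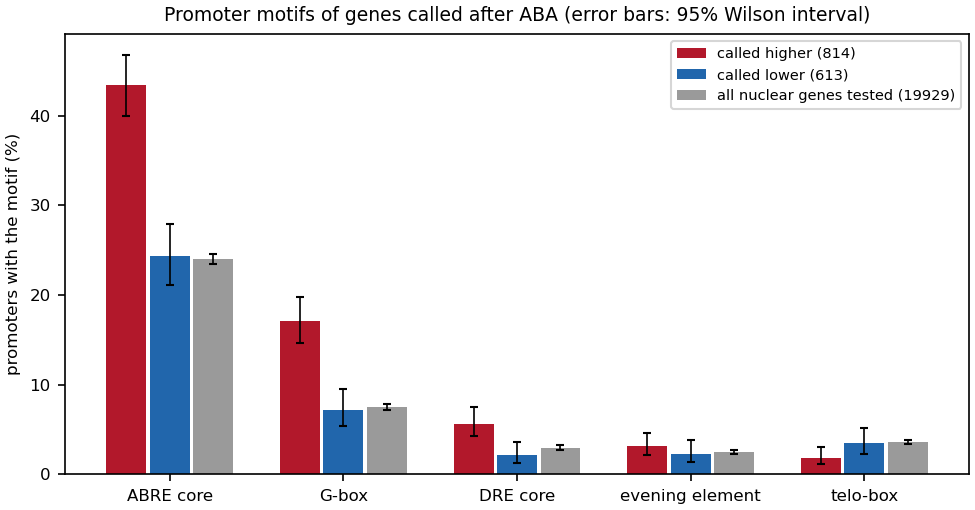
Percent of promoter windows (y axis, from 0) that hold each of 5 motifs on either strand (x axis), for the genes called higher (red), called lower (blue) and all nuclear genes tested (grey). Error bars are 95% Wilson intervals, and the ABRE core, the G-box and the rarer DRE core, searched as GCCGAC, were more frequent in the higher genes than in the other groups.

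Of the 26 windows of the higher genes among the 10 largest increases, the PP2C genes, the RD29, COR15 and KIN genes and the dehydrins, 15 held ACGTG and 1 held GCCGAC. The windows of *RD29B* (AT5G52300), *HAI2* (AT1G07430), *RAP2.6* and *HAI3* (AT2G29380) are printed 5′ to 3′ on the strand of the gene, because they hold several ABRE cores each and their genes rose steeply. Capitals mark ACGTG and its reverse complement. They lie at chr5:21236771-21237020, plus strand, chr1:2282829-2283078, minus strand, chr1:16263555-16263804, plus strand and chr2:12608425-12608674, plus strand of TAIR10.1, and none of them overlaps another annotated gene.
RD29B: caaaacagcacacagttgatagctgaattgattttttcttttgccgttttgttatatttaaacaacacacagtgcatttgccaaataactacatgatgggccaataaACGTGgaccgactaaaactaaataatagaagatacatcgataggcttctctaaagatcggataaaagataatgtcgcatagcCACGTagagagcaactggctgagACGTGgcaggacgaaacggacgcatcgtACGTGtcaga
HAI2: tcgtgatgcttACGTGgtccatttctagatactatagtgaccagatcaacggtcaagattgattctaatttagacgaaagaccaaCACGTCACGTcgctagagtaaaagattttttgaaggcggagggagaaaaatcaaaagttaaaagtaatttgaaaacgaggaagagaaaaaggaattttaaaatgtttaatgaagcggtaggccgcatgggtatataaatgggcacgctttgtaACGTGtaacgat
RAP2.6: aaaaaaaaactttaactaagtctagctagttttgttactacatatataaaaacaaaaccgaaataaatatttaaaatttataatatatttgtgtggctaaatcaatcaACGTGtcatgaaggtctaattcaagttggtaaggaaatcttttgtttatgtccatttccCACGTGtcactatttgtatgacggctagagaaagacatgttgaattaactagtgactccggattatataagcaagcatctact
HAI3: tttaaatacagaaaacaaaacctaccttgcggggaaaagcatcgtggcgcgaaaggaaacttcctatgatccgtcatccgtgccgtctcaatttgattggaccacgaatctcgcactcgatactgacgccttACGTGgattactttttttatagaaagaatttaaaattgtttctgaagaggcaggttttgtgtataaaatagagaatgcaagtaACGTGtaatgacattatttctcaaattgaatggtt

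Counted back from the gene start, the first base of each match lay 143, 61, 38 and 10 bases upstream in *RD29B*, 239, 165, 160 and 12 bases in *HAI2* and 118 and 35 bases in *HAI3*. In *RAP2.6* matches lay at 142, 83 and 82 bases, and the last 2 of these are the same G-box read on both strands. The windows of *RD29A*, *ABI1*, *ABI2*, *HAI1*, *ERD10* and *COR47*, whose genes also rose, held neither ACGTG nor GCCGAC in these 250 bases. The ACCGAC form of the DRE core was not searched across the windows, but the *RD29A* window and the printed *RD29B* window both hold it.

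Most of the receptor genes that passed the test fell. Of 14 PYR/PYL genes 9 passed the filter, 5 of them fell (2 without ABA replicate 1 or ABA replicate 2) and 2 rose (1 without mock replicate 1, mock replicate 3, ABA replicate 1 or ABA replicate 2 or under upper-quartile scaling), beside 14.6% and 16.6% of all genes, and the median log2 fold change was -1.13. *PYL4* (AT2G38310) fell most among the stable calls, from 25.2, 40.3 and 18.6 CPM in the mock replicates to 3.26, 2.75 and 4.06 CPM after ABA (log2 fold change -3.04, SE 0.33, n = 3 and 3, adjusted p = 0.00181). *PYL1* (AT5G46790) fell from 13.4, 17.5 and 24.6 CPM to 5.61, 4.61 and 6.01 CPM (log2 fold change -1.77, SE 0.27, n = 3 and 3, adjusted p = 0.00447). In both genes the groups were clearly apart, and for *PYL1* mock replicate 3 was the highest library. *PYL7* (AT4G01026) went the other way, from 17.62, 12.8 and 10.5 CPM to 39.6, 28.4 and 40.3 CPM (log2 fold change 1.41, SE 0.25, n = 3 and 3, adjusted p = 0.00742). The other changes rested on few libraries. *PYR1* (AT4G17870) had a log2 fold change of -0.99 (adjusted p = 0.0156), and its call was lost without ABA replicate 1 or ABA replicate 2 (adjusted p from 0.0603 to 0.0607). *PYL2* (AT2G26040) had -1.41 (adjusted p = 0.0207), and its call was lost without mock replicate 1, mock replicate 2, ABA replicate 1 or ABA replicate 2 (adjusted p from 0.0505 to 0.0852). *PYL6* (AT2G40330) ranged over 2.86, 15.8 and 0.835 CPM in the mock libraries against 0.210, 0.372 and 0.181 CPM after ABA (log2 fold change -4.67, adjusted p = 0.0229), and its call was lost without ABA replicate 1, ABA replicate 2 or ABA replicate 3 (adjusted p from 0.0600 to 0.0775), and the log2 fold change was -2.90 without mock replicate 2. *PYL8* (AT5G53160) had 1.02 (adjusted p = 0.0465), and its call was lost without mock replicate 1, mock replicate 3, ABA replicate 1 or ABA replicate 2 (adjusted p from 0.0704 to 0.132). *PYL5* (AT5G05440) and *PYL9* (AT1G01360) did not pass (log2 fold changes -1.13 and 0.23, adjusted p = 0.124 and 0.465), and *PYL3* and *PYL10* to *PYL13* were under the filter.

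The phosphatases moved opposite to most receptors: all 9 clade A PP2C genes passed and rose, 7 of them at least 4-fold, beside 16.6% and 4.08% of all genes, with a median log2 fold change of 2.8. With replicates 1 and 2 alone 8 of 8 rose, since *AHG1* then had too few reads. *ABI1* (AT4G26080), the phosphatase first found through an ABA-insensitive mutant, had 129, 106 and 134 CPM in mock replicates 1 to 3 and 688, 681 and 635 CPM in ABA replicates 1 to 3 (log2 fold change 2.44, SE 0.21, n = 3 and 3, adjusted p = 0.000935). Its paralog *ABI2* (AT5G57050) had 23.4, 17.5 and 36.7 CPM and 153, 162 and 157 CPM (log2 fold change 2.60, SE 0.29, n = 3 and 3, adjusted p = 0.00186). The ABA libraries of both genes lay close together and above all mock libraries. The highly ABA-induced genes *HAI1* (AT5G59220) and *HAI2* rose by more, *HAI1* from 8.51, 4.56 and 32.7 CPM to 532, 510.4 and 257 CPM (log2 fold change 4.81, SE 0.80, n = 3 and 3, adjusted p = 0.00621) and *HAI2* from 5.21, 3.98 and 10.4 CPM to 68.1, 70.8 and 71.3 CPM (log2 fold change 3.39, SE 0.36, n = 3 and 3, adjusted p = 0.00165). *HAI3* was nearly silent at 0, 0.147 and 0.417 CPM and had 37.6, 50.4 and 33.4 CPM after ABA (log2 fold change 7.54, SE 0.57, n = 3 and 3, adjusted p = 0.000688). Mock replicate 3 was the highest mock library for all 9 phosphatase genes, and ABA replicate 3 was the lowest ABA library for *HAI1*. *HAB2* (AT1G17550) changed least (log2 fold change 0.93, SE 0.17, adjusted p = 0.00802). *HAB1* (AT1G72770) had 37.1, 30.3 and 169 CPM and 487, 461 and 696 CPM (log2 fold change 2.8, adjusted p = 0.0235), and its call was lost without mock replicate 1, mock replicate 2, ABA replicate 1 or ABA replicate 2 (adjusted p from 0.0504 to 0.0754). *PP2CA* (AT3G11410) rose by 1.97 on the log2 scale (adjusted p = 0.0202), and its call was lost without mock replicate 1, ABA replicate 1 or ABA replicate 2 (adjusted p from 0.0536 to 0.0785). *AHG1* (AT5G51760), known for its role in seeds, had 3 reads in the mock libraries and 105 after ABA, a ratio of 16.4 (95% counting interval 5.47 to 81.0, adjusted p = 0.0270), and its call was lost without mock replicate 1 or mock replicate 2 (adjusted p from 0.0727 to 0.0865), while its fitted log2 fold change was 7.65 without mock replicate 3.

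**Figure D2:**
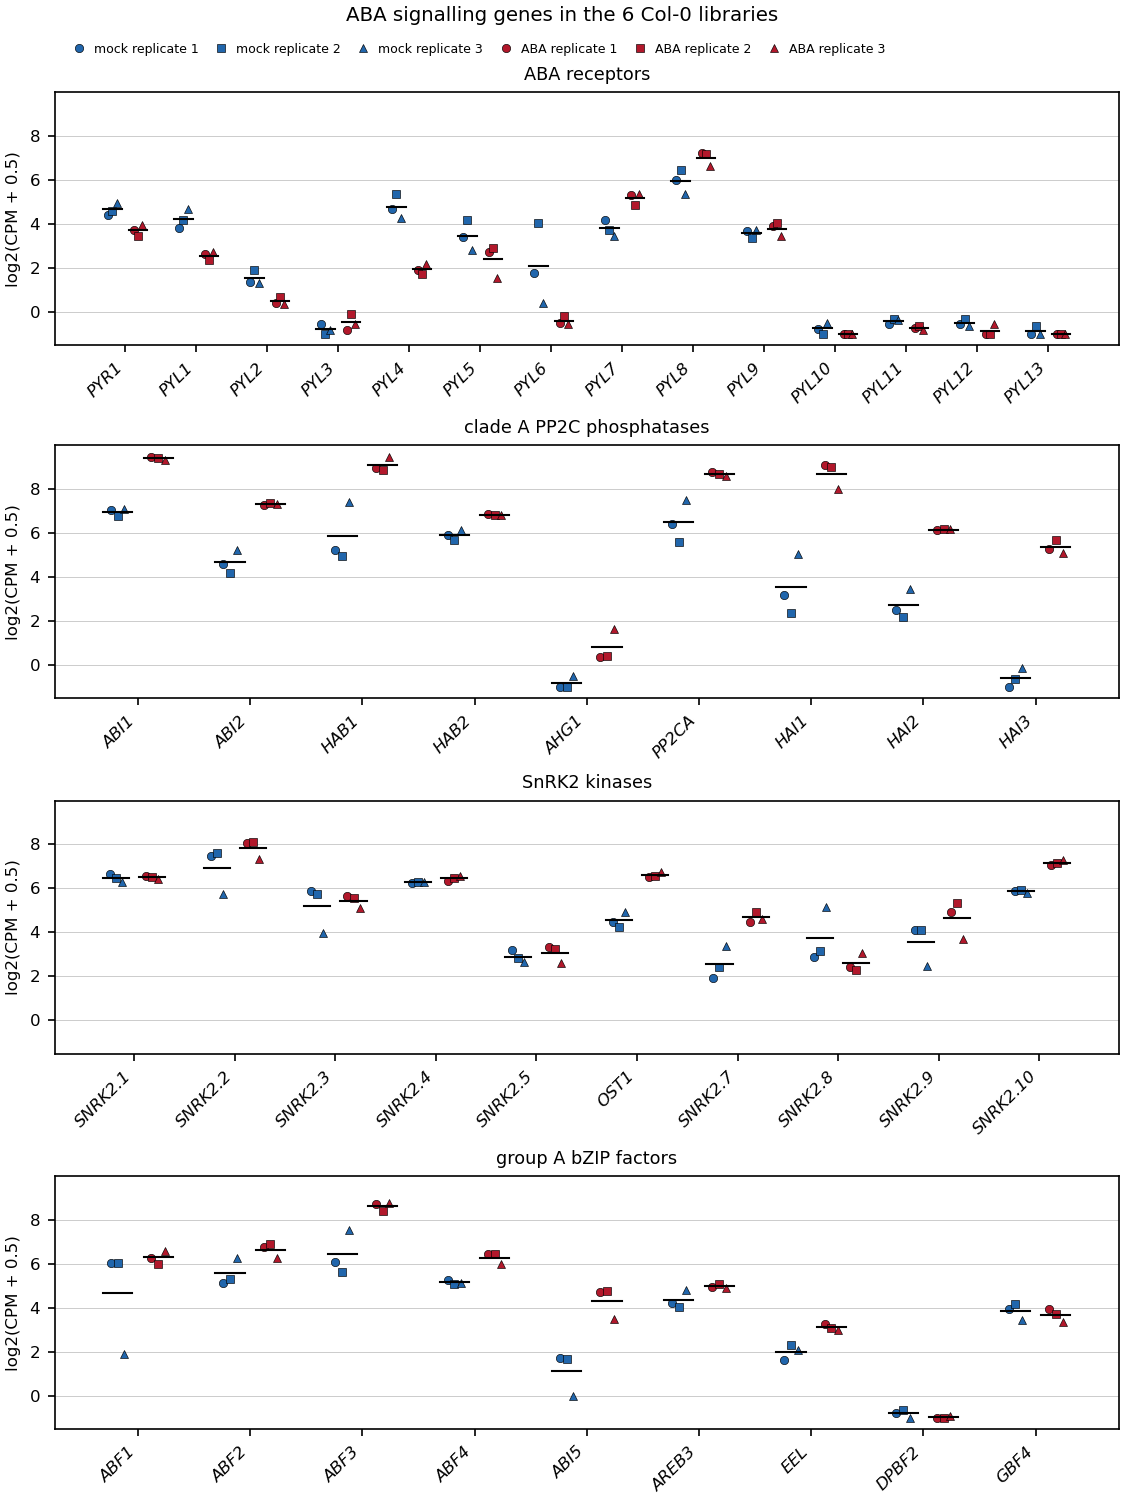
Level in log2(CPM + 0.5) (y axis) of each listed gene (x axis) in the 3 mock libraries (blue) and the 3 ABA libraries (red) of Col-0; circles, squares and triangles are replicates 1, 2 and 3, and black bars are group means. All 9 phosphatase genes rose, 5 of 9 tested receptor genes fell, and mock replicate 3 (blue triangles) stands apart for genes such as *HAB1* and *ABF1*.

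Some SnRK2 kinase genes rose and most did not pass the test. Of 10 SnRK2 genes 3 rose (5 with replicates 1 and 2 alone), beside 16.6% of all genes, and 0 fell (median log2 fold change 0.47), and 5 rose and 1 fell with replicates 1 and 2 alone, beside 24.1% and 22.9% of all genes higher and lower there. *OST1* (AT4G33950), whose kinase acts in guard cells, had 21.1, 18.3 and 29.3 CPM in the mock and 89.9, 92.5 and 103 CPM in the ABA replicates (log2 fold change 2.05, SE 0.21, n = 3 and 3, adjusted p = 0.00163). *SNRK2.7* (AT4G40010) rose from 3.30, 4.86 and 9.67 CPM to 21.6, 29.9 and 23.8 CPM (log2 fold change 2.06, SE 0.39, n = 3 and 3, adjusted p = 0.00973) and *SNRK2.10* (AT1G60940) from 58.1, 59.0 and 54.0 CPM to 131, 138 and 152 CPM (log2 fold change 1.3, SE 0.15, n = 3 and 3, adjusted p = 0.00210). No library of one group overlapped the other for these genes. *SNRK2.2* (AT3G50500) and *SNRK2.3* (AT5G66880), which share the core ABA role with *OST1*, did not pass (log2 fold changes 0.72 and 0.03, adjusted p = 0.290 and 0.970), and both were lowest in mock replicate 3, with 51.8 and 15.2 CPM. The remaining members *SNRK2.1* (AT5G08590), *SNRK2.4* (AT1G10940), *SNRK2.5* (AT5G63650), *SNRK2.8* (AT1G78290) and *SNRK2.9* (AT2G23030) had log2 fold changes between -1.57 and 1.12 and did not pass.

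Of the bZIP genes 8 of 9 were tested and 4 rose (2 without ABA replicate 1), 1 of them at least 4-fold, with a median log2 fold change of 1.08, while 6 rose and 0 fell with replicates 1 and 2 alone. *ABI5* (AT2G36270), the bZIP factor of seed germination and early seedling arrest, had 2.78, 2.65 and 0.487 CPM under mock conditions and 25.6, 26.2 and 10.9 CPM after ABA (log2 fold change 3.46, SE 0.64, n = 3 and 3, adjusted p = 0.00901). Replicate 3 was its lowest library in both groups, and the groups still did not overlap. *ABF4* (AT3G19290) rose from 38.0, 32.8 and 34.6 CPM to 85.5, 85.8 and 62.1 CPM (log2 fold change 1.14, SE 0.18, n = 3 and 3, adjusted p = 0.00542). *ABF3* (AT4G34000) had 67.5, 48.4 and 187 CPM and 414, 330.4 and 434 CPM (log2 fold change 1.96, adjusted p = 0.0270), and its call was lost without mock replicate 1, mock replicate 2, ABA replicate 1 or ABA replicate 2 (adjusted p from 0.0558 to 0.0944). *EEL* (AT2G41070) rose by 1.2 on the log2 scale (adjusted p = 0.0141), and its call was lost without ABA replicate 1 (adjusted p = 0.0597). *ABF1* (AT1G49720) had 65.1, 64.2 and 3.27 CPM and 77.0, 63.3 and 95.3 CPM and did not pass (adjusted p = 0.490), and mock replicate 3 lay far under the other mock libraries. *ABF2* (AT1G45249), *AREB3* (AT3G56850) and *GBF4* (AT1G03970) did not pass either (log2 fold changes 1.01, 0.58 and -0.18).

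Genes of ABI5-binding proteins and of ABA-linked MAPKKKs rose beside the phosphatases. Of the ABI5-binding proteins, which dampen ABI5 activity, and the ubiquitin ligase KEG, 4 of 5 genes rose, all at least 4-fold, and none fell. *AFP3* (AT3G29575) went from 23.3, 16.9 and 52.2 CPM to 244, 247 and 309.7 CPM (log2 fold change 3.11, SE 0.44, n = 3 and 3, adjusted p = 0.00385), and *TMAC2* (AT3G02140) from 3.21, 7.21 and 10.7 CPM to 51.2, 43.1 and 70.1 CPM (log2 fold change 2.95, SE 0.44, n = 3 and 3, adjusted p = 0.00432). Both were above every mock library in every ABA library. *AFP2* (AT1G13740) had a log2 fold change of 2.21 (adjusted p = 0.00190). *AFP1* (AT1G69260) had 7.64, 5.74 and 45.6 CPM and 190.3, 194 and 182 CPM (log2 fold change 3.25, adjusted p = 0.0217), and its call was lost without mock replicate 1, ABA replicate 1 or ABA replicate 2 (adjusted p from 0.0525 to 0.0663). All 8 tested MAPKKK genes of the clade linked to ABA rose (4 without mock replicate 1 and 5 without mock replicate 2), 6 at least 4-fold. *MAPKKK18* (AT1G05100), whose kinase is activated in ABA signalling, had 0.521, 0.442 and 2.37 CPM under mock conditions and 41.5, 48 and 95.9 CPM after ABA (log2 fold change 5.66, SE 0.67, n = 3 and 3, adjusted p = 0.00226). *MAPKKK17* (AT2G32510) rose from 3.39, 5.45 and 4.1 CPM to 45.3, 52.2 and 67.6 CPM (log2 fold change 3.69, SE 0.26, n = 3 and 3, adjusted p = 0.000630). ABA replicate 3 was the highest library for both kinase genes. *MAPKKK21* (AT4G36950) and *MAPKKK13* (AT1G07150) had log2 fold changes of 5.12 and 2.8 (adjusted p = 0.00479 and 0.00389).

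The ABA 8′-hydroxylases, which start ABA breakdown, were among the steepest hormone genes. *CYP707A1* (AT4G19230) had 5.64, 6.63 and 10.4 CPM in mock replicates 1 to 3 and 171, 189 and 356 CPM after ABA (log2 fold change 4.97, SE 0.42, n = 3 and 3, adjusted p = 0.000930), and *CYP707A3* (AT5G45340) had 2.26, 4.12 and 1.67 CPM and 23.3, 26.8 and 52.3 CPM (log2 fold change 3.73, SE 0.46, n = 3 and 3, adjusted p = 0.00259). For both, ABA replicate 3 was the highest ABA library and no ABA library reached down to the mock range. *CYP707A2* (AT2G29090) and the ABA glucosyltransferase gene *UGT71B6* (AT3G21780) rose by 2.34 and 2.59 on the log2 scale (adjusted p = 0.00858 and 0.00722), so that 4 of 8 genes of breakdown and conjugation rose under each alternative run and none fell. Of 5 tested genes of ABA synthesis 2 rose, beside 16.6% of all genes. They were *AAO3* (AT2G27150) and *ABA3* (AT1G16540), which make the last step and its cofactor. *AAO3* had 26.9, 30.8 and 28.6 CPM and 96.1, 91.3 and 132 CPM (log2 fold change 1.89, SE 0.20, n = 3 and 3, adjusted p = 0.00159), and *ABA3* a log2 fold change of 1.04 (adjusted p = 0.00433). *ABA1* (AT5G67030) and *ABA2* (AT1G52340) did not pass (log2 fold changes -0.80 and -0.33). The ABA exporter genes *DTX50* (AT5G52050) and *ABCG25* (AT1G71960) rose, *DTX50* from 2.17, 2.65 and 2.23 CPM to 33.2, 23.56 and 67.1 CPM (log2 fold change 4.15, SE 0.44, n = 3 and 3, adjusted p = 0.00171) and *ABCG25* by 1.81 on the log2 scale (adjusted p = 0.00182), while *NPF4.6* (AT1G69850) and *ABCG22* (AT5G06530) did not pass.

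The classical target genes of ABA and cold rose together. Of the 6 RD29, COR15 and KIN genes 5 rose under every alternative run, 4 of them at least 4-fold with all replicates, and the median log2 fold change was 3.37. *RD29B* had 5.73, 1.62 and 22.7 CPM under mock conditions and 238, 328 and 179 CPM after ABA, with mock replicate 3 high and ABA replicate 3 low, so that the groups were closer in replicate 3 (log2 fold change 4.6, SE 0.88, n = 3 and 3, adjusted p = 0.00991). *KIN1* (AT5G15960) had 64.2, 39.2 and 35.4 CPM and 536, 575 and 387 CPM (log2 fold change 3.43, SE 0.32, n = 3 and 3, adjusted p = 0.00126) and its neighbour *KIN2* (AT5G15970) 229, 172 and 138 CPM and 1883, 2067 and 1409 CPM (log2 fold change 3.31, SE 0.33, n = 3 and 3, adjusted p = 0.00143). For both KIN genes ABA replicate 3 was the lowest ABA library, and the groups were far apart. *RD29A* (AT5G52310) went the other way within the ABA group, with 3875, 3670.2 and 6317 CPM after ABA against 226, 207 and 103 CPM under mock conditions (log2 fold change 4.69, SE 0.49, n = 3 and 3, adjusted p = 0.00165). *COR15B* (AT2G42530) had 218, 128 and 33.4 CPM and 287, 217 and 199.9 CPM and did not pass (log2 fold change 0.89, adjusted p = 0.286), whereas its paralog *COR15A* (AT2G42540) rose from 282, 130.0 and 173 CPM to 819.6, 598 and 656 CPM (log2 fold change 1.83, SE 0.34, n = 3 and 3, adjusted p = 0.00873). *KIN1* and *KIN2*, and *COR15A* and *COR15B*, are similar in sequence, and how reads shared between such genes were counted is not given in the sources used here.

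Dehydrins, hydrophilic proteins that protect membranes and enzymes from water loss, rose in 6 of 8 tested genes (4 to 7 over the alternative runs), all of these at least 4-fold with all replicates, with a median log2 fold change of 2.14. *LTI30* (AT3G50970) had 52.8, 65.5 and 29.7 CPM in the mock replicates and 848, 1138 and 1284 CPM in the ABA replicates (log2 fold change 4.47, SE 0.39, n = 3 and 3, adjusted p = 0.00105). *ERD10* (AT1G20450) went from 242, 338 and 190.3 CPM to 3170.5, 3122 and 3429 CPM (log2 fold change 3.66, SE 0.35, n = 3 and 3, adjusted p = 0.00129), and *COR47* (AT1G20440) had 175 CPM in mock replicate 3 against 450.1 and 554 CPM in the other mock libraries. After ABA the libraries of these dehydrin genes lay closer together than before. *ERD14* (AT1G76180) rose by 2.01 on the log2 scale (adjusted p = 0.00427). The calls of *RAB18* (AT5G66400) and *XERO1* (AT3G50980), named after their values were seen, were lost without mock replicate 2, ABA replicate 1 or ABA replicate 2. That of *RAB18* was also lost without mock replicate 3, and that of *XERO1* without mock replicate 1 (adjusted p from 0.0552 to 0.133). Of the other late embryogenesis abundant (LEA) genes, 11 of 15 were tested and 9 rose, all at least 4-fold (median 3.38). *LEA7* (AT1G52690) had 1.74, 0.442 and 6.54 CPM and 317, 412 and 392 CPM (log2 fold change 6.92, SE 0.84, n = 3 and 3, adjusted p = 0.00242), while *LEA14* (AT1G01470), which was present before treatment, went from 91.7, 63.5 and 70.6 CPM to 502, 526 and 581 CPM (log2 fold change 2.83, SE 0.23, n = 3 and 3, adjusted p = 0.000807). *ECP63* (AT2G36640) and *EM6* (AT2G40170), genes known from seeds, rose by 5.34 and 3.38 on the log2 scale (adjusted p = 0.00116 and 0.00230), although the storage protein markers of seeds were not above the filter. The lipid droplet gene *RD20* (AT2G33380) had 12.7, 14.4 and 105 CPM and 253, 197 and 717 CPM (log2 fold change 3.14, adjusted p = 0.0476), and its call was lost without mock replicate 1, mock replicate 2, ABA replicate 1, ABA replicate 2 or ABA replicate 3 (adjusted p from 0.0666 to 0.120), and the log2 fold change was 4.84 without mock replicate 3. It did not pass under upper-quartile scaling either. Of 6 lipid transfer protein genes 2 rose and 1 fell, beside 16.6% and 14.6% of all genes, and 3 did not pass. *LTP3* (AT5G59320) and *LTP4* (AT5G59310) rose by 2.03 and 1.25 on the log2 scale (adjusted p = 0.00810 and 0.00962), and *LTP6* (AT3G08770) fell by 2.08 (adjusted p = 0.00459).

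Transcription factor families responded to different degrees, with the stress NAC genes the most uniform. All 11 NAC genes of the list rose (9 to 11 over the alternative runs), 8 at least 4-fold, with a median log2 fold change of 2.78. *RD26* (AT4G27410), a NAC activator induced by drought and ABA, had 14.8, 12.4 and 16.1 CPM under mock conditions and 249, 251 and 514 CPM after ABA (log2 fold change 4.55, SE 0.37, n = 3 and 3, adjusted p = 0.000862). *NAC102* (AT5G63790) rose from 60.2, 70.4 and 68.0 CPM to 499, 431 and 436 CPM (log2 fold change 2.78, SE 0.19, n = 3 and 3, adjusted p = 0.000630). ABA replicate 3 was well above the other ABA libraries for *RD26* but not for *NAC102*, and neither gene had overlapping groups. *ATAF2* (AT5G08790) and the senescence factor gene *NAP* (AT1G69490) rose by 2.98 and 1.75 on the log2 scale (adjusted p = 0.000922 and 0.00130). Of 14 MYB genes tied to drought or ABA 9 rose and 2 fell (median 2.03), beside 16.6% and 14.6% of all genes. *MYB96* (AT5G62470), an activator of cuticular wax genes, had 16.9, 14.7 and 17.1 CPM and 115, 102 and 113 CPM (log2 fold change 2.76, SE 0.16, n = 3 and 3, adjusted p = 0.000479), and *MYB44* (AT5G67300) rose by 2.62 and *MYB102* (AT4G21440) by 4.08 on the log2 scale (adjusted p = 0.00218 and 0.00470). *MYB60* (AT1G08810), a guard cell factor that promotes stomatal opening, fell from 11, 13.4 and 11.8 CPM to 5.05, 5.72 and 4.85 CPM (log2 fold change -1.21, SE 0.19, n = 3 and 3, adjusted p = 0.00479).

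Among the CBF and DREB2 genes, whose factors bind the DRE, 5 of 7 tested rose (3 without mock replicate 1), all at least 4-fold, with a median of 3.38. *DREB2A* (AT5G05410) had 5.64, 4.71 and 2.09 CPM in the mock replicates and 88.0, 74.7 and 128 CPM after ABA (log2 fold change 4.57, SE 0.43, n = 3 and 3, adjusted p = 0.00123), and *CBF4* (AT5G51990) had 0.174, 0.147 and 0.0696 CPM and 6.24, 5.50 and 3.69 CPM (log2 fold change 5.30, SE 0.45, n = 3 and 3, adjusted p = 0.000984). Mock replicate 3 was the lowest library for *DREB2A*. The mock values of *CBF4* rest on very few reads, 1 of them in mock replicate 3, so its mock libraries cannot be ranked and its fold change is imprecise. *CBF1* (AT4G25490) rose by 3.38 on the log2 scale (adjusted p = 0.00968), as did *DREB2C* (AT2G40340) by 4.00 (adjusted p = 0.0119), for which the call was lost without mock replicate 1 (adjusted p = 0.0555). Of 12 WRKY genes 5 rose (3 without mock replicate 3, ABA replicate 1 or ABA replicate 2) and 2 fell, beside 16.6% and 14.6% of all genes. *WRKY40* (AT1G80840), a repressor in ABA signalling, rose from 2.43, 5.45 and 0.765 CPM to 53.1, 45 and 92.6 CPM (log2 fold change 4.56, SE 0.67, n = 3 and 3, adjusted p = 0.00416), and its relative *WRKY60* (AT2G25000) fell from 7.99, 15.0 and 10.4 CPM to 1.96, 1.71 and 2.75 CPM (log2 fold change -2.36, SE 0.32, n = 3 and 3, adjusted p = 0.00347). *WRKY33* (AT2G38470) and *WRKY6* (AT1G62300) rose by 2.2 and 1.67 (adjusted p = 0.00797 and 0.00434). Of 14 HD-Zip I genes 5 rose (2 without mock replicate 1) and 1 fell (2 without mock replicate 3 or with replicates 1 and 2 alone or under upper-quartile scaling), against 16.6% and 14.6% of all genes. *HB21* (AT2G18550), a factor of bud dormancy, had 0.260, 0.294 and 0.0696 CPM and 5.92, 8.33 and 8.84 CPM (log2 fold change 5.30, SE 0.46, n = 3 and 3, adjusted p = 0.00100), *HB53* (AT5G66700) rose by 2.62 and *HB54* (AT1G27045) fell by 2.54. The mock values of *HB21* also rest on very few reads. Of the 10 NF-YA genes 0 rose and 1 fell, beside 16.6% and 14.6% of all genes. With replicates 1 and 2 alone 3 rose and 2 fell, beside 24.1% and 22.9%. The gene that fell with all replicates was *NF-YA2* (AT3G05690), with a log2 fold change of -1.49 (adjusted p = 0.0150), and its call was lost without mock replicate 1 (adjusted p = 0.0572).

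Genes of amino acid breakdown and of sugar and dark starvation rose. This list joins catabolic enzymes with the starvation genes ASN1, SEN1 and DIN10, which do not break amino acids down. Of its 11 genes 10 rose (7 to 11 over the alternative runs), 8 at least 4-fold, and none fell (median log2 fold change 2.17). *LKR* (AT4G33150), the first enzyme of lysine breakdown, had 29.3, 41.7 and 34.5 CPM under mock conditions and 244, 245 and 232 CPM after ABA (log2 fold change 2.77, SE 0.20, n = 3 and 3, adjusted p = 0.000630). The leucine breakdown genes *IVD* (AT3G45300) and *MCCA* (AT1G03090) rose from 31.8, 41.8 and 33.9 CPM to 170.2, 194 and 119.6 CPM (log2 fold change 2.17, SE 0.24, n = 3 and 3, adjusted p = 0.00178) and from 36.5, 28.4 and 24.1 CPM to 194, 243 and 85.7 CPM (log2 fold change 2.55, SE 0.40, n = 3 and 3, adjusted p = 0.00524). ABA replicate 3 was the lowest ABA library of all these genes, and the list's median departure of that library from ABA replicates 1 and 2 was -0.92 in log2 CPM. *DIN4* (AT3G13450) rose by 2.09 (adjusted p = 0.00444). In proline metabolism 3 of 7 genes rose and none fell, beside 16.6% and 14.6% of all genes. *P5CS1* (AT2G39800), the first enzyme of proline synthesis, had 549.7, 364 and 839 CPM and 488, 466 and 475 CPM and did not pass (log2 fold change -0.29, adjusted p = 0.517). *ERD5* (AT3G30775), the proline dehydrogenase that breaks proline down, rose from 31.7, 73.2 and 47.9 CPM to 209, 278 and 258 CPM (log2 fold change 2.29, SE 0.33, n = 3 and 3, adjusted p = 0.00397), and the ornithine aminotransferase gene *DELTA-OAT* (AT5G46180) rose by 0.86 (adjusted p = 0.00888).

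In the raffinose pathway, whose sugars act as protectants, 2 of 7 tested genes rose (4 without mock replicate 3 or with replicates 1 and 2 alone), beside 16.6% of all genes. *SIP2* (AT3G57520), encoding a raffinose hydrolase, had 89.6, 121 and 98.9 CPM and 757, 769.6 and 1318 CPM (log2 fold change 3.20, SE 0.32, n = 3 and 3, adjusted p = 0.00150), and the galactinol synthase gene *GOLS4* (AT1G60470) had 3.73, 2.21 and 5.91 CPM and 34.1, 54.0 and 16.9 CPM (log2 fold change 3.10, SE 0.52, n = 3 and 3, adjusted p = 0.00629). *GOLS1* (AT2G47180) and *RS5* (AT5G40390) did not pass (log2 fold changes 1.12 and -0.18). Both nitrate reductase genes rose, *NIA1* (AT1G77760) from 196, 300.2 and 83.0 CPM to 1178, 1099.8 and 1603 CPM (log2 fold change 2.74, SE 0.49, n = 3 and 3, adjusted p = 0.00804) and *NIA2* (AT1G37130) from 483, 871 and 535 CPM to 2011, 1894 and 1992 CPM (log2 fold change 1.64, SE 0.32, n = 3 and 3, adjusted p = 0.0103), while *LBD38* (AT3G49940), a repressor of nitrate genes, fell by 0.97 on the log2 scale (adjusted p = 0.00459). Of all 11 nitrate genes 4 rose (2 without mock replicate 1) and 1 fell (2 without mock replicate 3 or with replicates 1 and 2 alone), beside 16.6% and 14.6% of all genes. Of 16 wax genes 7 rose (3 without mock replicate 1 and 4 without mock replicate 2) and 2 fell (1 without mock replicate 1, mock replicate 2, ABA replicate 1 or ABA replicate 2), beside 16.6% and 14.6% of all genes. The fatty acid elongases *CER6* (AT1G68530) and *KCS1* (AT1G01120) rose from 202, 249 and 274 CPM to 597, 639 and 735 CPM (log2 fold change 1.44, SE 0.22, n = 3 and 3, adjusted p = 0.00483) and from 34.4, 35.8 and 68.2 CPM to 172, 179 and 264 CPM (log2 fold change 2.15, SE 0.34, n = 3 and 3, adjusted p = 0.00516), and *CER2* (AT4G24510) rose by 1.58. *CER4* (AT4G33790), the alcohol-forming reductase of the pathway, fell by 2.2 (adjusted p = 0.00658). Chlorophyll breakdown genes did not move as one, with 2 of 7 higher (0 without mock replicate 1 or ABA replicate 1) and 1 lower (0 without mock replicate 1, ABA replicate 1 or ABA replicate 2), beside 16.6% and 14.6% of all genes. *NYC1* (AT4G13250) had 134, 158 and 41.8 CPM and 450.5, 346 and 533 CPM (log2 fold change 2.00, adjusted p = 0.0224), and its call was lost without mock replicate 1 or ABA replicate 1 (adjusted p from 0.0592 to 0.0623).

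Genes of low oxygen and fermentation had the highest list median with all 3 replicates, and both groups had been in liquid medium. Of 17 genes 15 rose, 13 at least 4-fold, and none fell, with a median log2 fold change of 4.64 against -0.01 over all genes. The order of the lists depended on replicate 3: with replicates 1 and 2 alone the medians were 4.39 here and 4.43 for other LEA proteins, and without mock replicate 3 they were 4.35, 4.45 and, for heat shock genes, 4.54. *HB1* (AT2G16060), the class 1 phytoglobin and not the HD-Zip factor of the same symbol, had 23.61, 27.7 and 14.3 CPM in mock replicates 1 to 3 and 859, 688 and 889 CPM after ABA (log2 fold change 5.22, SE 0.35, n = 3 and 3, adjusted p = 0.000604). *LBD41* (AT3G02550), a factor induced by low oxygen, went from 5.99, 7.80 and 4.87 CPM to 226, 199.5 and 149 CPM (log2 fold change 4.96, SE 0.28, n = 3 and 3, adjusted p = 0.000479). *PCO1* (AT5G15120), the plant cysteine oxidase that acts in oxygen sensing, went from 3.04, 4.42 and 2.57 CPM to 69.9, 52.6 and 50.6 CPM (log2 fold change 4.14, SE 0.27, n = 3 and 3, adjusted p = 0.000602). AT1G33055, of unknown function, had 0.868, 1.91 and 1.53 CPM and 167, 157 and 85.3 CPM (log2 fold change 6.6, SE 0.43, n = 3 and 3, adjusted p = 0.000602). In none of these genes did the groups overlap. Of the fermentation genes, *ADH1* (AT1G77120), alcohol dehydrogenase, chosen after its values were seen, had 16.1, 24.3 and 8.63 CPM and 1489.6, 1335 and 1894 CPM. In mock replicate 3 the list lay -0.58 in log2 CPM from replicates 1 and 2, as a median.

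Heat shock genes of a list of stress-induced members rose as well. Of 15 genes, small and large heat shock proteins and the factor gene HSFA2, 12 rose, 11 at least 4-fold (median 4.08). Over all 23 tested genes with a symbol that starts with HSP, 9 rose and 0 fell, and with replicates 1 and 2 alone 10 rose and 6 fell. *ATHSP22.0* (AT4G10250), a small chaperone, had 0.347, 0.294 and 0.139 CPM and 18, 20.14 and 26.8 CPM (log2 fold change 6.41, SE 0.36, n = 3 and 3, adjusted p = 0.000479), and *HSP17.6A* (AT5G12030) had 1.39, 1.47 and 1.25 CPM and 25.2, 18.7 and 56.1 CPM (log2 fold change 4.61, SE 0.49, n = 3 and 3, adjusted p = 0.00171). ABA replicate 3 was the highest library for both, and it exceeded ABA replicates 1 and 2 by more than 1 in log2 CPM in 10 of 15 genes of the list. *HSP17.4* (AT3G46230) and *HSP17.6II* (AT5G12020) rose by 4.08 and 4.81 on the log2 scale (adjusted p = 0.00107 and 0.00156). Genes known to respond rapidly to wounding or touch rose in 12 of 26 (7 without mock replicate 1) and fell in 1. The zinc finger gene *ZAT12* (AT5G59820) had 5.82, 4.86 and 6.82 CPM under mock conditions and 69.0, 45.8 and 70.2 CPM after ABA (log2 fold change 3.39, SE 0.24, n = 3 and 3, adjusted p = 0.000646), and *XTH22* (AT5G57560), a touch-induced wall enzyme, had 14.9, 28.4 and 9.32 CPM and 538, 643 and 319 CPM (log2 fold change 4.84, SE 0.52, n = 3 and 3, adjusted p = 0.00172). *AZF2* (AT3G19580) and the calmodulin-like gene *CML37* (AT5G42380) rose by 2.88 and 4.03 (adjusted p = 0.00156 and 0.00150). JAZ genes, which encode repressors of jasmonate signalling and are themselves induced by it, rose in 7 of 11 (4 without mock replicate 1, mock replicate 2 or ABA replicate 1) and fell in 1. *JAZ1* (AT1G19180) had 15.0, 25 and 16.5 CPM and 155, 127 and 416 CPM (log2 fold change 3.63, SE 0.53, n = 3 and 3, adjusted p = 0.00404), with ABA replicate 3 above the others, *JAZ7* (AT2G34600) rose by 3.85, *JAZ12* (AT5G20900) by 1.5, and *JAZ4* (AT1G48500) fell by 1.57 on the log2 scale.

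Genes of cell elongation fell together. SAUR genes, small auxin-induced proteins that promote growth by activating the plasma membrane proton pump, fell in 12 of 18 tested (6 without mock replicate 1 and 7 without ABA replicate 1), all at least 4-fold, and none rose (median log2 fold change -2.66). This was the lowest list median with all replicates, but without ABA replicate 3 it was -2.19, above the -2.63 of morning clock genes and the -2.59 of flavonoid genes. *SAUR16* (AT4G38860) had 79.3, 48.7 and 48.2 CPM in mock replicates 1 to 3 and 3.79, 2.60 and 3.73 CPM in ABA replicates 1 to 3 (log2 fold change -4.11, SE 0.29, n = 3 and 3, adjusted p = 0.000630). *SAUR14* (AT4G38840) went from 39.0, 19.6 and 95.2 CPM to 3.61, 4.01 and 3.11 CPM (log2 fold change -3.85, SE 0.58, n = 3 and 3, adjusted p = 0.00459). The ABA libraries of both lay close together, whereas over the list ABA replicate 3 lay -1.48 in log2 CPM from replicates 1 and 2 as a median, and 12 of 18 genes were lower there by more than 1. *SAUR15* (AT4G38850) and *SAUR9* (AT4G36110) fell by 2.99 and 2.14 on the log2 scale. Of 17 alpha-expansin genes 12 fell (7 without mock replicate 1) and 1 rose, with a median of -1.60. *EXPA1* (AT1G69530) fell from 341, 282 and 210.4 CPM to 14.1, 15.8 and 18.9 CPM (log2 fold change -4.09, SE 0.26, n = 3 and 3, adjusted p = 0.000602), and *EXPA15* (AT2G03090) from 60.2, 53.2 and 55.4 CPM to 5.50, 4.01 and 4.38 CPM (log2 fold change -3.59, SE 0.18, n = 3 and 3, adjusted p = 0.000477). *EXPA3* (AT2G37640) and *EXPA5* (AT3G29030) fell by 2.74 and 3.77 (adjusted p = 0.000745 and 0.000745). Reads shared between such similar family members may be split or left out, depending on how they were counted.

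Lists of other hormone pathways held genes that rose and genes that fell. Of 22 Aux/IAA repressor genes 4 rose (1 without mock replicate 1, 10 without ABA replicate 3 and 11 with replicates 1 and 2 alone) and 5 fell (2 without mock replicate 1, ABA replicate 1 or ABA replicate 2 and 3 without mock replicate 3), beside 16.6% and 14.6% of all genes, and the sign of their median depended on the scaling (0.09, and -0.05 under upper-quartile scaling). *IAA14* (AT4G14550) fell from 28.0, 24.1 and 55.8 CPM to 8.90, 8.92 and 7.13 CPM (log2 fold change -2.12, SE 0.34, n = 3 and 3, adjusted p = 0.00556), *IAA12* (AT1G04550) fell by 1.38 and *IAA30* (AT3G62100) rose by 2.85 on the log2 scale. In the gibberellin list 6 of 17 genes rose and 4 fell (2 without mock replicate 3, ABA replicate 1 or ABA replicate 2). *GA2OX6* (AT1G02400), an enzyme that inactivates gibberellin, had 6.34, 5.45 and 10.1 CPM and 55.1, 57.4 and 72.1 CPM (log2 fold change 3.06, SE 0.27, n = 3 and 3, adjusted p = 0.00109), *GA3OX2* (AT1G80340), an enzyme that makes the active hormone, fell by 4.26 (adjusted p = 0.00715), and the receptor gene *GID1B* (AT3G63010) rose by 1.66 (adjusted p = 0.00355). *GA2OX1* (AT1G78440) fell by 4.07 although it belongs to the inactivating family, from 2.00, 1.03 and 2.09 CPM to 0.105, 0 and 0.145 CPM. Brassinosteroid enzymes fell in 2 of 9 genes (1 without mock replicate 1, mock replicate 2, mock replicate 3, ABA replicate 1 or ABA replicate 2), beside 14.6% of all genes. Among them *CYP90D1* (AT3G13730) fell by 1.23 (adjusted p = 0.0107), while *CPD* (AT5G05690) and *DWF1* (AT3G19820) did not pass. In the ethylene list 7 of 15 genes rose (1 without mock replicate 1) and 2 fell, beside 16.6% and 14.6% of all genes. The receptor gene *ERS2* (AT1G04310) rose from 9.46, 9.42 and 9.95 CPM to 70.7, 79.2 and 36.2 CPM (log2 fold change 2.69, SE 0.31, n = 3 and 3, adjusted p = 0.00206), and the synthase genes *ACS4* (AT2G22810) and *ACS5* (AT5G65800) fell by 3.27 and 2.96 (adjusted p = 0.00404 and 0.00646). None of the 9 type-A response regulators of cytokinin signalling passed in either direction, and with replicates 1 and 2 alone 3 of 8 fell.

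Cell division genes fell by less than elongation genes. Of 22 mitotic genes 8 fell (1 without mock replicate 1 or ABA replicate 1 and 2 without mock replicate 2 or ABA replicate 2) and none rose, none of them 4-fold, and the median log2 fold change was -0.51. *CYCA1;1* (AT1G44110) fell from 23.61, 23.7 and 15.4 CPM to 8.69, 6.91 and 5.21 CPM (log2 fold change -1.59, SE 0.27, n = 3 and 3, adjusted p = 0.00654). *CYCB1;1* (AT4G37490), a cyclin of the entry into mitosis, had 10.9, 8.39 and 6.96 CPM and 4.77, 4.91 and 4.85 CPM (log2 fold change -0.85, adjusted p = 0.0296), and its call was lost without mock replicate 1, mock replicate 2, ABA replicate 1 or ABA replicate 2 (adjusted p from 0.0596 to 0.104). *CYCB1;4* (AT2G26760) and *MYB3R4* (AT5G11510), which activates such cyclins, fell by 1.1 and 0.98 on the log2 scale. For *CYCB1;4* the call was lost without mock replicate 1 or ABA replicate 1 (adjusted p from 0.0512 to 0.0553), and for *MYB3R4* the call was lost without mock replicate 1, mock replicate 2, ABA replicate 1 or ABA replicate 2 (adjusted p from 0.0527 to 0.0727). In the stomatal lineage 5 of 10 genes fell (2 without mock replicate 1, ABA replicate 1 or ABA replicate 2 and 3 without mock replicate 2) and none rose, with a median of -1.13. *TMM* (AT1G80080), a receptor-like protein that spaces stomata, had 24.0, 16.9 and 22.4 CPM and 10.7, 10.4 and 9.89 CPM (log2 fold change -1.03, SE 0.18, n = 3 and 3, adjusted p = 0.00741), and *POLAR* (AT4G31805) had 10.9, 7.95 and 8.70 CPM and 4.07, 2.82 and 2.5 CPM (log2 fold change -1.55, SE 0.27, n = 3 and 3, adjusted p = 0.00703). *SPCH* (AT5G53210), the factor that starts the lineage, fell by 1.22 (adjusted p = 0.0275), and its call was lost without mock replicate 1, mock replicate 2, ABA replicate 1 or ABA replicate 2 (adjusted p from 0.0769 to 0.0940). Of 16 genes of guard cell and root channels and pumps 4 rose (2 without mock replicate 1, mock replicate 2, ABA replicate 1, ABA replicate 2 or ABA replicate 3 or under upper-quartile scaling) and 2 fell (1 without mock replicate 3 or ABA replicate 1, 5 without ABA replicate 3 or under upper-quartile scaling and 7 with replicates 1 and 2 alone), beside 16.6% and 14.6% of all genes. The outward potassium channel gene *GORK* (AT5G37500) rose from 11.6, 15.3 and 9.88 CPM to 33, 41.6 and 27.8 CPM (log2 fold change 1.48, SE 0.23, n = 3 and 3, adjusted p = 0.00525), the anion channel gene *ALMT12* (AT4G17970) rose by 0.96 and *SLAH1* (AT1G62280) fell by 2.54. Aquaporins of the PIP family had a median of -0.22, with 2 of 13 higher (1 without mock replicate 1, mock replicate 2, ABA replicate 1 or ABA replicate 2 or under upper-quartile scaling and 4 with replicates 1 and 2 alone), beside 16.6% of all genes, *PIP2;6* (AT2G39010) by 1.4 and *PIP2;7* (AT4G35100) by 0.95, for which the call was lost without mock replicate 1, mock replicate 2, ABA replicate 1, ABA replicate 2 or ABA replicate 3 (adjusted p from 0.0565 to 0.146). Root hair genes rose in 1 of 10, beside 16.6% of all genes, and none fell (median log2 fold change -0.67). With replicates 1 and 2 alone 1 of 9 rose and 3 fell, beside 24.1% and 22.9% of all genes. The gene that rose with all replicates was *RHD2* (AT5G51060), an oxidase of hair growth, higher by 1.07, for which the call was lost without mock replicate 1, mock replicate 2, ABA replicate 1, ABA replicate 2 or ABA replicate 3 (adjusted p from 0.0545 to 0.0828).

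Nuclear genes of photosynthesis moved in 1 direction. Of 48 genes 21 fell and none rose, 8 at least 4-fold (median log2 fold change -0.99), and the number that fell was 9 without ABA replicate 1, 10 without ABA replicate 2, 11 without mock replicate 1 and 33 with replicates 1 and 2 alone. *LHCB2.2* (AT2G05070) had 2559, 1809 and 2264 CPM under mock conditions and 78.3, 61.2 and 262 CPM after ABA (log2 fold change -4.05, SE 0.64, n = 3 and 3, adjusted p = 0.00526), and its ABA replicate 3 was the highest ABA library. *LHCB6* (AT1G15820), a minor antenna protein, went from 3544, 2433 and 2813 CPM to 389, 382 and 408 CPM (log2 fold change -2.90, SE 0.30, n = 3 and 3, adjusted p = 0.00156). The photosystem I subunit gene *PSAD2* (AT1G03130) went from 728, 649 and 424 CPM to 75.2, 86.7 and 124 CPM (log2 fold change -2.66, SE 0.31, n = 3 and 3, adjusted p = 0.00224), and *PETE1* (AT1G76100), plastocyanin, fell by 1.78 (adjusted p = 0.00509). The green shoot markers fell in 1 of 6 and the root markers in 2 of 8, beside 14.6% of all genes. The green shoot gene was *STM* (AT1G62360), named after its values were seen. Its call was lost in each leave-out and with replicates 1 and 2 alone (adjusted p from 0.0638 to 0.134). The summed CPM of the green shoot markers was 22871 to 36479.7 in mock and 13051 to 22062 in ABA libraries. Of these markers, *LHCB1.3*, *RBCS1A* and *RCA* are also in the photosynthesis list. The part of tissue makeup in the result was not tested. Glucosinolates are defence compounds, and genes of their synthesis fell in 6 of 15 (3 without ABA replicate 1 and 13 without ABA replicate 3 or with replicates 1 and 2 alone), beside 14.6% of all genes. The list joins the aliphatic branch, made from methionine, with genes of the indolic branch such as CYP79B2 and MYB34. The aliphatic activator *MYB28* (AT5G61420) fell from 89.1, 97.5 and 113 CPM to 19.6, 15.8 and 16.7 CPM (log2 fold change -2.52, SE 0.18, n = 3 and 3, adjusted p = 0.000630), its paralog *MYB29* (AT5G07690) from 48.2, 39.3 and 69.6 CPM to 2.77, 2.01 and 11.3 CPM (log2 fold change -3.27, SE 0.67, n = 3 and 3, adjusted p = 0.0122) and *CYP83A1* (AT4G13770) from 333, 365 and 365 CPM to 43.4, 35.2 and 95.2 CPM (log2 fold change -2.61, SE 0.40, n = 3 and 3, adjusted p = 0.00464). ABA replicate 3 was the highest ABA library for *MYB29* and *CYP83A1* but not for *MYB28*.

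In the flavonoid and anthocyanin pathway 8 of 17 tested genes fell (2 without ABA replicate 1 or ABA replicate 2 and 15 with replicates 1 and 2 alone) and none rose (median -2.15), although 1 rose with replicates 1 and 2 alone. The glutathione transferase gene *TT19* (AT5G17220), needed for anthocyanin storage, had 22.2, 19.9 and 59.5 CPM and 2.42, 1.34 and 2.5 CPM (log2 fold change -3.99, SE 0.52, n = 3 and 3, adjusted p = 0.00298), and the regulator *EGL3* (AT1G63650) had 9.03, 7.51 and 10.9 CPM and 1.89, 1.49 and 2.75 CPM (log2 fold change -2.14, SE 0.30, n = 3 and 3, adjusted p = 0.00366). The glycosyltransferase genes *UF3GT* (AT5G54060) and AT4G14090 fell by 3.72 and 3.65 on the log2 scale (adjusted p = 0.0159 and 0.0135). For *UF3GT* the call was lost without ABA replicate 1 or ABA replicate 2 (adjusted p from 0.0562 to 0.0591), and the log2 fold change was -2.35 without mock replicate 3. For AT4G14090 the call was lost without ABA replicate 1 or ABA replicate 2 (adjusted p from 0.0503 to 0.0525), and the log2 fold change was -2.32 without mock replicate 3. Mock replicate 3 was the highest library for each of them. Of 9 genes often used as references in expression assays, 2 rose (1 without mock replicate 1, ABA replicate 1 or ABA replicate 2 and 4 with replicates 1 and 2 alone) and none fell, beside 16.6% and 14.6% of all genes. Those that rose were *UBC21* (AT5G25760), by 0.82 (adjusted p = 0.0103), and AT2G28390, by 0.59, for which the call was lost without mock replicate 1, ABA replicate 1 or ABA replicate 2 (adjusted p from 0.0584 to 0.0862).

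Other members behind the smaller counts are named here after their values were seen. *EXPA16* (AT3G55500) was the expansin gene that rose, from 1.13, 0.589 and 2.64 CPM to 123, 127 and 82.7 CPM (log2 fold change 6.15, SE 0.50, n = 3 and 3, adjusted p = 0.000860), against the direction of its family. *AZF1* (AT5G67450), a zinc finger gene, was the wound and touch gene that fell (log2 fold change -2.0, SE 0.38, n = 3 and 3, adjusted p = 0.0101), and *WRKY54* (AT2G40750) the other WRKY gene that fell (log2 fold change -2.21, SE 0.44, n = 3 and 3, adjusted p = 0.0113). These calls held in each leave-out. *CBF2* (AT4G25470), *HB7* (AT2G46680), *HB40* (AT4G36740), *UPM1* (AT5G40850), *IAA16* (AT3G04730), *IAA18* (AT1G51950) and *LKP2* (AT2G18915) rose, with log2 fold changes of 2.52, 2.32, 2.06, 2.11, 1.17, 1.16 and 0.86, and were lost without mock replicate 1 alone (adjusted p from 0.0510 to 0.0662). The calls of *HB6* (AT2G22430), *WRKY46* (AT2G46400), *WRKY63* (AT1G66600), AT5G38710, *PPH* (AT5G13800), *NHX1* (AT5G27150), *AHA1* (AT2G18960), *NPF7.2* (AT4G21680) and *IAA2* (AT3G23030), which were higher (log2 fold changes from 0.79 to 3.77), and of *MYB20* (AT1G66230), *CER8* (AT2G47240), *RCCR* (AT4G37000), *SKOR* (AT3G02850), *IAA1* (AT4G14560), *IAA17* (AT1G04250), *IAA27* (AT4G29080), *GA3OX1* (AT1G15550), *RGL2* (AT3G03450), *BR6OX1* (AT5G38970), *BASL* (AT5G60880) and *SDD1* (AT1G04110), which were lower (-2.53 to -0.74), had adjusted p from 0.0141 to 0.0483 and were each lost in 2 to 6 of the 6 leave-outs. The log2 fold change of *NPF7.2* was 5.86 without mock replicate 2, that of *RGL2* -1.45 without mock replicate 3 and that of *BR6OX1* -3.55 without ABA replicate 3.

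**Figure D3:**
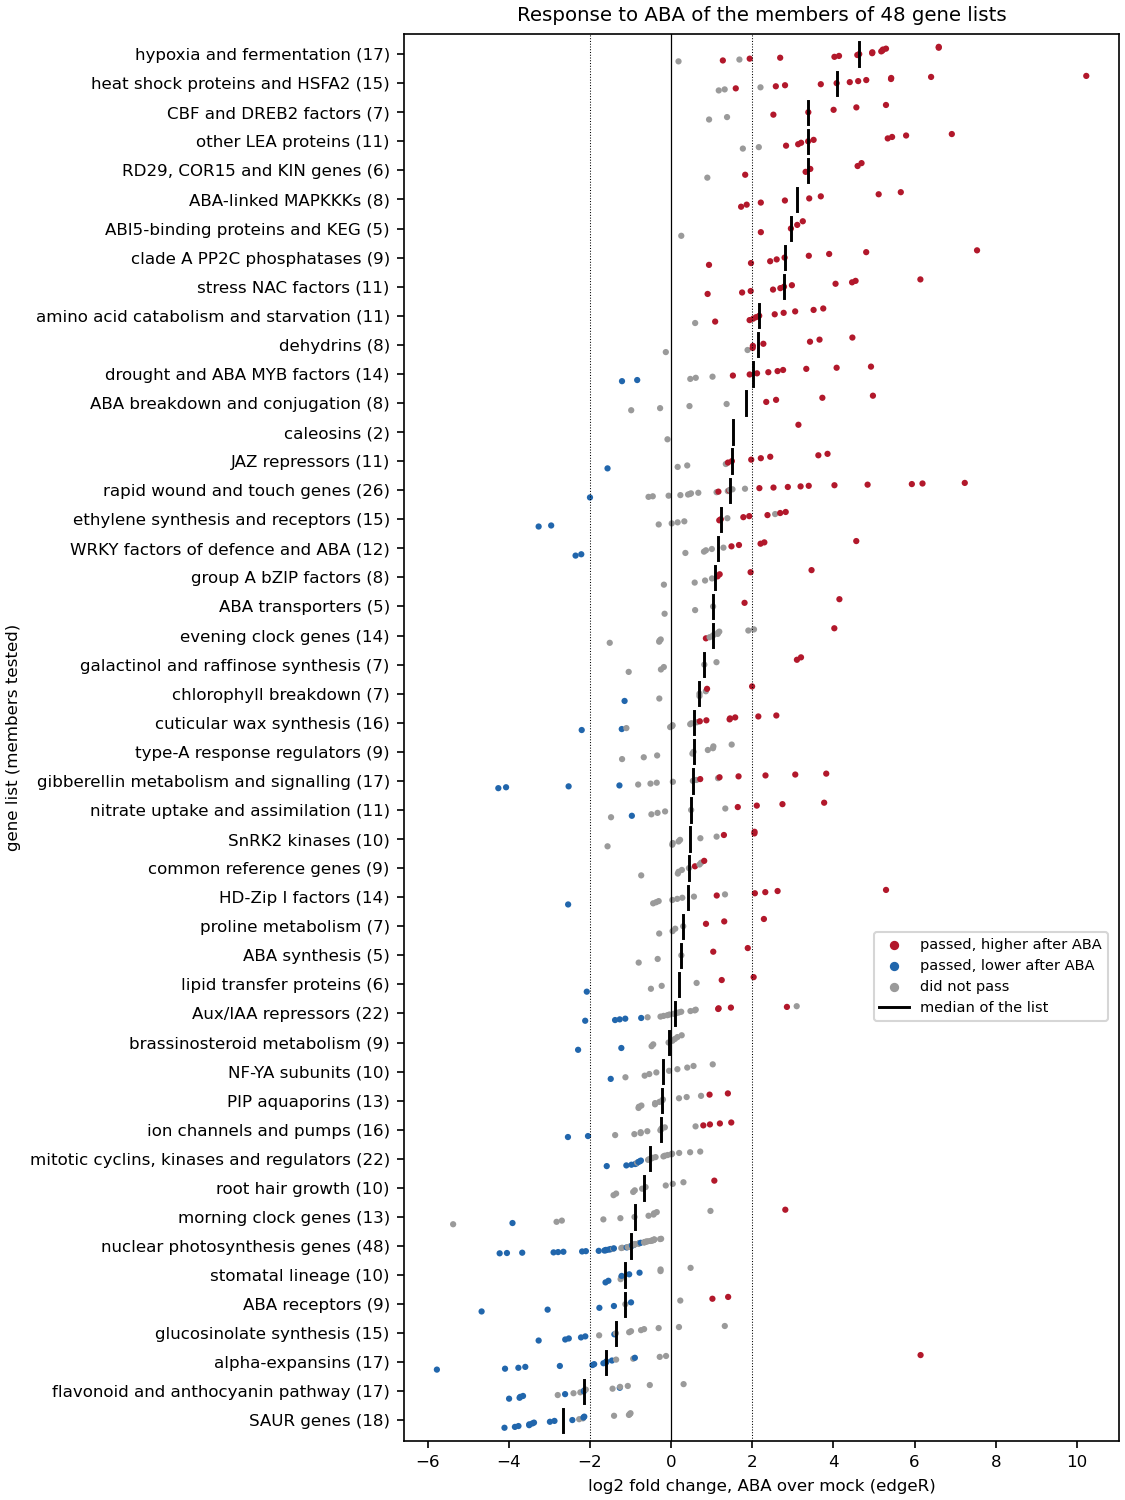
Log2 fold change of ABA over mock (x axis) of every tested member of the 48 gene lists (y axis, number of tested members in brackets); red and blue points passed the test as higher and lower, grey points did not pass, black bars are list medians and dotted lines mark 4-fold. With all 3 replicates hypoxia and heat shock genes have the highest medians (4.64 and 4.08) and SAUR genes the lowest (-2.66), an order that changes when replicate 3 of either group is left out.

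Replicate 3 departed from replicates 1 and 2 in both treatments. With 1 such library in each group this is a description, given as log2 CPM of replicate 3 minus the mean of replicates 1 and 2, with 0.5 added to each CPM. Among 12845 genes with a mean of at least 10 CPM in the mock libraries, 618 lay more than 1 above and 695 more than 1 below, together 10.2%, whereas replicates 1 and 2 differed by more than 1 in 1.95% of them. Among 12646 such genes in the ABA libraries, 753 lay above and 551 below, together 10.3%, against 0.229% between replicates 1 and 2. The median size of the departure was 0.30 in mock and 0.32 in ABA libraries, beside median gaps between replicates 1 and 2 of 0.22 and 0.10.

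Clock genes were at the extremes. The plant clock runs through factors that peak around dawn, such as LHY and CCA1, and evening factors such as TOC1, which repress each other. In mock replicate 3, 8 of 13 morning genes lay more than 1 above replicates 1 and 2 (median departure 1.72), and 11 of 14 evening genes more than 1 below (median -2.7), beside a median of 0.02 over all genes tested. In ABA replicate 3 the medians were 1.93 and -0.78, with 10 of 13 morning genes above and 7 of 14 evening genes below by that margin. *LHY* (AT1G01060) had 6.6, 5.15 and 342 CPM in mock replicates 1 to 3 and 0.841, 0.818 and 6.63 CPM in ABA replicates 1 to 3. It was the highest of all 10 upward departures in mock replicate 3, and the ABA value was also highest in replicate 3. The labels give no time of day for any harvest, and its part in this departure was not tested. *FKF1* (AT1G68050), the evening photoreceptor, had 37.7, 40.6 and 0.278 CPM and 56.6, 61.5 and 42.9 CPM, and *PRR5* (AT5G24470) had 71.2, 57.4 and 1.53 CPM and 73.9, 70.2 and 144 CPM. Both were almost absent from mock replicate 3 alone. The RNA-binding protein gene *GRP7* (AT2G21660), an output of the clock, had 3009, 2203 and 68.2 CPM and 4573, 5109 and 508 CPM, low in replicate 3 of both groups. *LNK1* (AT5G64170) and *PRR9* (AT2G46790), morning genes, had 11.5, 9.51 and 146 CPM and 2.7, 1.49 and 59.6 CPM after ABA, and their mock values were 92.4, 77.0 and 228 CPM and 30.6, 25 and 38.7 CPM.

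**Figure D4:**
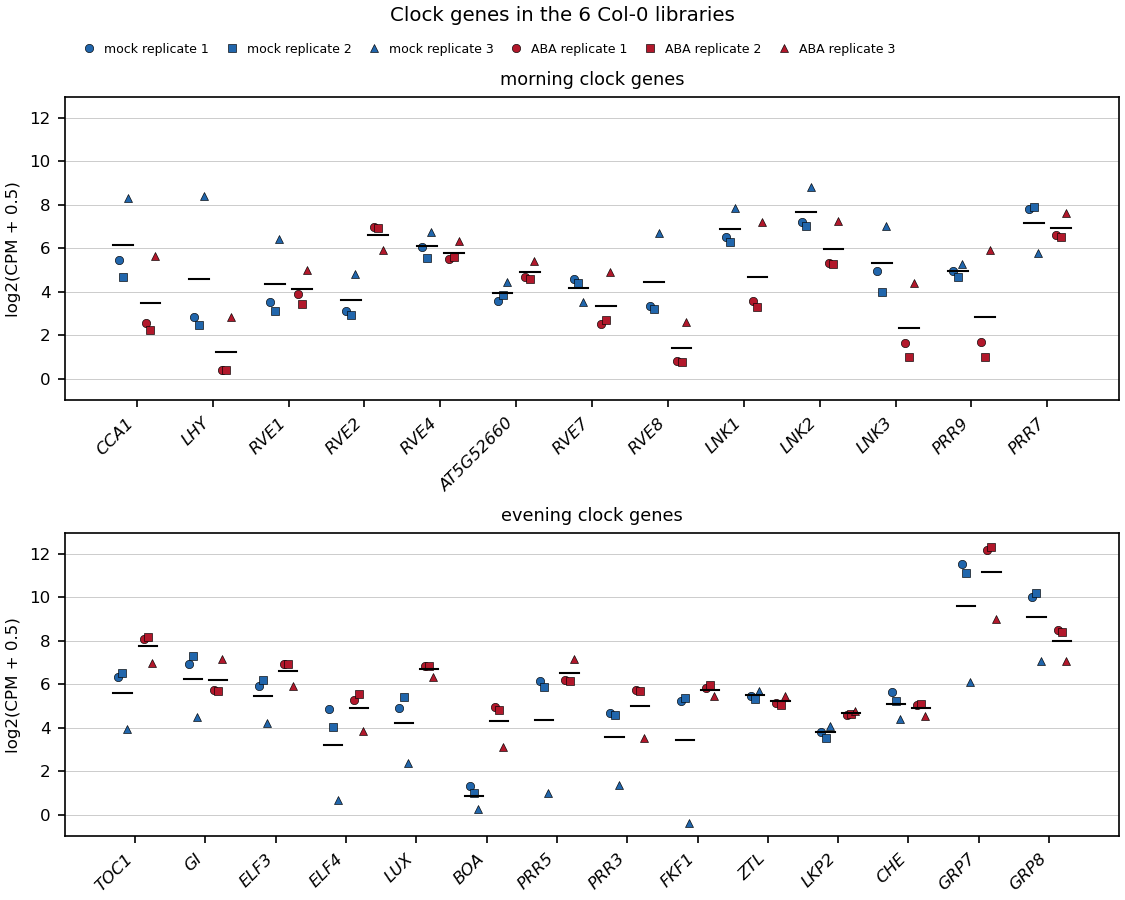
Level in log2(CPM + 0.5) (y axis) of morning and evening clock genes (x axis) in the 3 mock (blue) and 3 ABA libraries (red) of Col-0, with circles, squares and triangles for replicates 1, 2 and 3 and black bars for group means. Triangles lie high for most morning genes and low for most evening genes in the mock group, as for *LHY* and *FKF1*.

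Within these lists the ABA response depended on the replicates used. With all 3 replicates 1 of 13 morning genes rose and 1 fell, and 2 of 14 evening genes rose, whereas with replicates 1 and 2 alone 2 rose and 9 fell in the morning list and 9 rose and 2 fell in the evening list, beside backgrounds of 24.1% and 22.9%. *RVE2* (AT5G37260) rose with all replicates (8.07, 7.21 and 28.2 CPM and 127, 122 and 60.2 CPM, log2 fold change 2.81, SE 0.60, n = 3 and 3, adjusted p = 0.0140), and its call was lost without mock replicate 1 (adjusted p = 0.0534). *RVE8* (AT3G09600), a morning activator, fell from 9.81, 8.83 and 106 CPM to 1.26, 1.19 and 5.65 CPM (log2 fold change -3.91, adjusted p = 0.0450), and its call was lost without mock replicate 1, mock replicate 3, ABA replicate 1 or ABA replicate 2 (adjusted p from 0.0536 to 0.127), and the log2 fold change was -1.76 without mock replicate 3. *BOA* (AT5G59570), an evening factor, rose from 2.00, 1.47 and 0.696 CPM to 30.8, 27.7 and 8.22 CPM (log2 fold change 4.02, SE 0.63, n = 3 and 3, adjusted p = 0.00507) and kept its call in each leave-out. *LNK2* (AT3G54500), *PRR7* (AT5G02810) and *GRP8* (AT4G39260) did not pass with all replicates (adjusted p = 0.117, 0.601 and 0.178) and did with replicates 1 and 2 alone. For *PRR7* the mock values were 226, 238 and 54.1 CPM and the ABA values 98.5, 90.6 and 197 CPM, so that replicates 1 and 2 were lower after ABA and replicate 3 was higher.

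**Figure D5:**
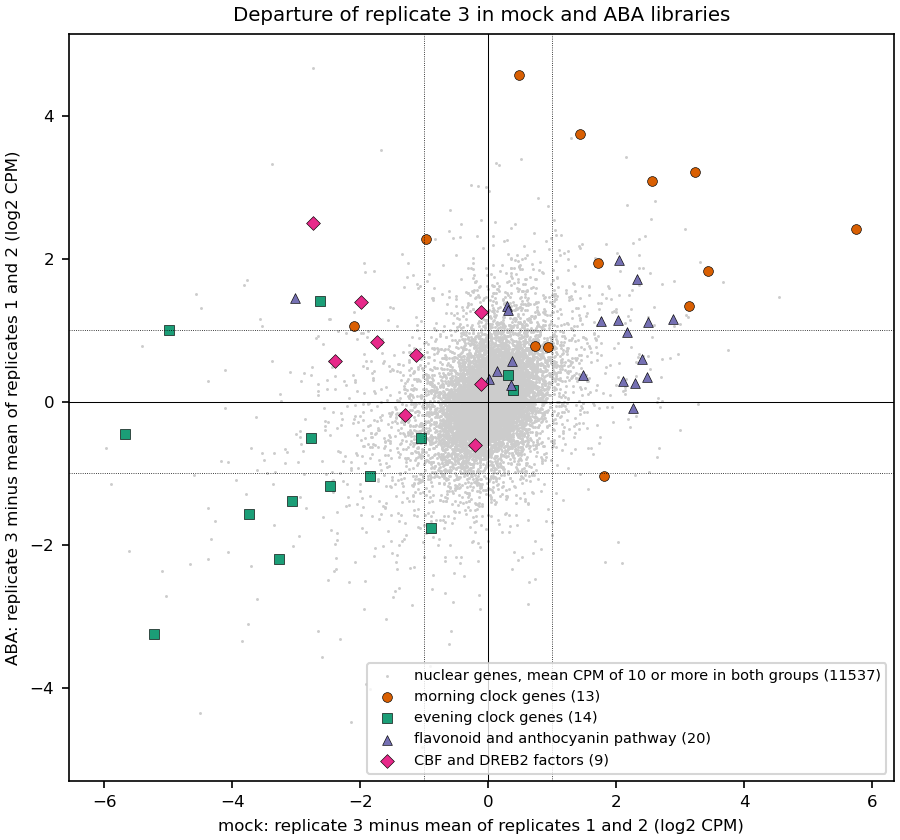
Departure of replicate 3 from the mean of replicates 1 and 2 in log2 CPM, in mock libraries (x axis) and ABA libraries (y axis); grey points are 11537 nuclear genes with a mean of at least 10 CPM in both groups, coloured points are all members of 4 lists and dotted lines mark departures of 1. Morning clock genes lie mostly to the upper right, evening clock genes to the lower left and flavonoid genes to the right.

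Other groups departed in 1 treatment or in both. Flavonoid genes were high in both replicates 3, with a median departure of 2.04 in mock and 0.98 in ABA libraries, and 12 of 17 tested genes were more than 1 above in mock replicate 3. Genes of the CBF and DREB2 factors were low in mock replicate 3 (median -1.74, 6 of 7 below by more than 1) and not in ABA replicate 3 (median 0.66), and the wound and touch genes were low in mock replicate 3 (-0.94). Type-A response regulators (2.23, 7 of 9 above), JAZ genes (1.48, 8 of 11), glucosinolate genes (1.27, 12 of 15) and heat shock genes (1.16) were high in ABA replicate 3, and their medians in mock replicate 3 were 0.37, 0.06, 0.28 and 0.11. Of the 15 heat shock genes, 6 were nevertheless more than 1 above in mock replicate 3 and 0 below, and their summed level ranged from 55.8 to 383 CPM over the mock libraries. SAUR genes were low in ABA replicate 3 (-1.48) and not in mock replicate 3 (0.20). Phosphatase genes were high in mock replicate 3 (median 0.84) and level in ABA replicate 3 (-0.04), so that the rise within replicate 3 was smaller than in replicates 1 and 2 (median log2 difference 2.13 and 2.93). Single genes far out in ABA replicate 3 were the auxin repressor gene *IAA29* (AT4G32280) (29.2, 27.0 and 0.616 CPM), the wall enzyme gene *XTH15* (AT4G14130) (122, 159.9 and 9.05 CPM) and the gibberellin-regulated gene *GASA6* (AT1G74670) (56.1, 65.2 and 3.26 CPM), which were low there, and the nicotianamine synthase gene *NAS3* (AT1G09240) (2.38, 0.743 and 47.7 CPM) and the sulfotransferase gene *ST4B* (AT1G13420) (1.72, 0.892 and 48.3 CPM), which were high. In mock replicate 3 *CCL* (AT3G26740) was low with 1151, 806 and 27.6 CPM and *BBX32* (AT3G21150) high with 0.521, 1.18 and 37.4 CPM.

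Most of the strong ABA responses seen without replicate 3 were present in it. Of 829 genes called at least 4-fold higher with replicates 1 and 2 alone, 797 (96.1%) were also higher in ABA than in mock replicate 3, 721 (87.0%) by at least 2-fold, and 4 were lower by at least 2-fold. Of 737 called at least 4-fold lower, 671 (91.0%) were lower in replicate 3, 534 (72.5%) by at least 2-fold, and 22 were higher by at least 2-fold. Over all 19885 genes, 49.8% were higher in ABA replicate 3 and 15.2% by at least 2-fold. The median difference of the higher genes was 2.47 in replicates 1 and 2 and 2.46 in replicate 3, and that of the lower genes -2.17 and -1.82. Replicate 3 was not used in these calls, and it holds 1 library of each treatment, so no test was made.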

How the data were processed

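RNA was isolated from whole seedlings and sequenced, and the deposited values are raw read counts per gene, made by the authors with FastQC, fastx_trimmer, TopHat2 against TAIR10 and featureCounts. Their versions, the strand setting, the treatment of reads shared between similar genes and the annotation release are not given in the sources used here. Libraries were grouped by their labels, and both groups have 3. The test was edgeR 4.0.16 (limma 3.58.1, R 4.3.3): TMM scaling, filterByExpr, the quasi-likelihood F-test on ABA against mock in the 6 Col-0 libraries, and Benjamini-Hochberg adjustment over 20062 genes of the whole table. The standard error is the log2 fold change over the square root of F. CPM are counts per 1000000 with TMM library sizes, and 0.5 was added to each CPM before taking log2 for departures and plots.

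The members, the 48 gene lists and the tests were chosen with earlier results of these data known, so the lists are described by counts and medians with no test of their own. Named genes are the 10 highest and 10 lowest log2 fold changes among called genes whose groups do not overlap and whose mean over the 6 libraries is at least 10 CPM, up to 4 genes per list (by adjusted p among those that passed, then by mean CPM), all members of the core signalling lists and of the RD29, COR15 and KIN list, and the 10 largest departures of replicate 3 in each direction and treatment among genes with a group mean of at least 10 CPM. Genes named beside these, such as *ADH1*, were chosen after their values were seen. Whether the replicate numbers pair the samples was checked by the correlation of deviations from the group means (0.337, -0.0218 and 0.257 for replicates 1 to 3). At unlike numbers it ran from -0.353 (mock replicate 1 with ABA replicate 3) to 0.287 (mock replicate 1 with ABA replicate 2). Mock replicate 3 correlated at -0.307 and -0.154 with ABA replicates 1 and 2, so replicate 3 shared part of its departure between the groups. The numbers were not treated as pairs in the main fit. The alternatives were DESeq2 1.42.0, upper-quartile scaling, no filter, nuclear genes alone, all 12 libraries in the fit, a replicate block and leaving out libraries. Promoter windows of 250 bases came from the RefSeq annotation of TAIR10.1. Scripts ran in Python 3.11.15 and were tested on simulated counts.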

Additional observations from a re-analysis of the deposited data

How the results depend on the processing

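With replicates 1 and 2 alone, 4549 genes fell in place of 2910, and at least 50% of the tested members rose in 29 of the 48 lists in place of 16 and fell in 8 in place of 4. The lists with at least 50% lower numbered 7 under upper-quartile scaling and 2 with no filter on low counts. Leaving out 1 library at a time gave 1880 to 3526 higher and 1423 to 3258 lower genes (666 to 842 and 495 to 787 at 4-fold), 12 to 18 lists with at least 50% higher and 0 to 7 with at least 50% lower. DESeq2 passed 3871 higher and 3443 lower genes, and the fit of all 4 groups 3935 and 3702. Upper-quartile scaling passed 2666 higher and 3716 lower genes. The check did not show that replicate numbers pair the libraries throughout, with a correlation of -0.0218 for replicate 2. Mock replicate 3 correlated at 0.257 with ABA replicate 3 and at -0.307 and -0.154 with ABA replicates 1 and 2. The fit with a replicate block passed 3373 higher and 2989 lower genes, 810 and 613 at 4-fold. Under this block 2 morning clock genes were higher and 6 lower in place of 1 and 1, 6 evening clock genes were higher in place of 2, 13 flavonoid and 10 glucosinolate genes were lower in place of 8 and 6, and 5 mitotic and 2 stomatal lineage genes were lower in place of 8 and 5. For the cytokinin response regulator gene *ARR7* the log2 fold change was 0.55, but -0.64 with replicates 1 and 2 alone and from -0.77 (without ABA replicate 3) to 0.96 in the leave-outs. For the transporter gene *ABCG22* it was -0.16, but 0.92 with replicates 1 and 2 alone and from -0.51 to 0.96 (without mock replicate 3). Of 2997 alternative values of named genes, 2801 kept direction and side of the threshold, 121 lost the call and 46 gained it. Another 25, of 10 genes, changed sign without passing in either fit, and 4, those of *ARR7* and *ABCG22*, changed sign with a call in 1 of the fits. The cause was not tested. The mock libraries held fewer reads, and genes of a few CPM there are the least precise.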

Other observations

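Families that share a symbol stem and have at least 8 tested members were also counted, 191 in all, and those named here were picked after their values were seen, so the counts carry no test and stand beside 16.6% of all genes higher and 14.6% lower. Glycosyltransferases of the UGT family, which attach sugars to hormones and defence compounds, rose in 19 of 48 genes and fell in 6, and 16 rose and 4 fell at least 4-fold. Glutathione transferases of the GSTU class, enzymes of detoxification, rose in 9 of 24 and fell in 3. Ubiquitin-conjugating enzymes rose in 17 of 31 and fell in 0, by a median log2 fold change of 0.62 over the family, and the reference gene *UBC21* is 1 of them. The KCS elongases of very long fatty acids rose in 8 of 16 and fell in 0, and HSFA heat stress factors rose in 4 of 8, or 7 of 8 with replicates 1 and 2 alone.

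Some other families had more lower genes than that share. Of 14 tested pTAC genes, whose proteins belong to the plastid transcription machinery, 9 fell and 0 rose (median log2 fold change -1.05), or 12 with replicates 1 and 2 alone. CRR genes fell in 8 of 11 (median -1.52) and OTP genes in 6 of 10 (median -1.03), and many members of both families act on plastid RNA or on the NDH complex. Among MCM genes, subunits of the replicative helicase, 5 of 8 fell (median -0.91), and among D-type cyclin genes 5 of 9 (median -0.72). Of 11 genes with the stem CDC, by contrast, 1 rose and 0 fell, and of 15 with the stem RAD 1 rose and 1 fell. ROPGEF genes, activators of the ROP GTPases of polar growth, fell in 5 of 10 (median -0.89). No pTAC, CRR, OTP, MCM, D-type cyclin or ROPGEF gene passed in the other direction with all replicates.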
